A study of Mus musculus with 9 samples.

Results

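The regulators of mitochondrial biogenesis were examined as 10 named genes, chosen by symbol from the 28379 genes of the deposited table. They were the coactivators Ppargc1a, Ppargc1b and Pprc1, the transcription factors Esrra, Nrf1 and Gabpa, the mitochondrial transcription proteins Tfam, Tfb2m and Polrmt, and the mitochondrial DNA polymerase Polg. All 10 had a row in the table, and 9 passed the filter on low counts, Ppargc1a being the exception. RNA sequencing covered primary bone marrow-derived macrophages (BMDMs) of 10-week-old C57BL/6J mice in 3 groups with 3 libraries each. All cells were kept in M-CSF at 20 ng/ml, the growth factor that maintains macrophages. The PBS group was left without RANKL, the cytokine that turns macrophages into osteoclasts. Cells of the RANKL group had RANKL at 100 ng/ml for 48 h. Cells of the RANKL + Vit D + K group had the same RANKL exposure with 2 added vitamins, namely calcitriol (vitamin D) at 1000 nM and menaquinone-4 (vitamin K), for which the labels give 20 μM. Vitamin D and vitamin K were not given alone in these libraries, so their single effects cannot be told apart. By the study's methods RNA was pooled before sequencing, and the cultures or mice behind each replicate are not named, so p-values measure only the spread between these libraries, which may be technical.

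New mitochondria need products of both the nuclear genome and mitochondrial DNA (mtDNA). Coactivators of the PGC family bind transcription factors such as estrogen-related receptor alpha (Esrra), nuclear respiratory factor 1 (Nrf1) and GA-binding protein (Gabpa), which switch on nuclear genes for respiration and for the mtDNA machinery. Tfam, Tfb2m and Polrmt then start transcription of mtDNA, and Polg copies it. Osteoclasts are rich in mitochondria, and Ppargc1b is the family member known for driving mitochondrial biogenesis in them. Nrf1 here is the respiratory factor and not the stress regulators Nfe2l1 or Nfe2l2, which share similar short names.

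Recognition motifs of Nrf1 and of Gabpa are a textbook feature of promoters of this pathway, so the stretches that held them are shown. RefSeq promoter sequences (GRCm38.p6) were given for 9 of the 10 genes, in 10 windows because Nrf1 has 2, and the 250 bases upstream of each start were searched on both strands. The Gabpa-type (ETS) motif CGGAAG was found in 5 of the 10 windows, against 13.6% of all 32851 windows. The Nrf1-type motif TGCGCANGC was found in 2 of the 10, against 3.45% of all windows. The Esrra-type motif AAGGTCA was found in 0 of the 10 and in 4.08% of all windows. Motifs of different types did not overlap each other. Each line below gives 30 bases around a match, 5′ to 3′ on the strand of the gene, with the motif in capitals, and CTTCCG is CGGAAG read from the opposite strand.
Tfam, Gabpa-type, chr10:71238073-71238102: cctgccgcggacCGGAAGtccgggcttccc
Tfb2m, Gabpa-type, chr1:179546290-179546319: gcggagcctaggCGGAAGCGGAAGcgagtg
Polg, Gabpa-type, chr7:79466293-79466322: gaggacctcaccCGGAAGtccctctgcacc
Polrmt, Gabpa-type, chr10:79746607-79746636: accctaagagcgCTTCCGgcagtcgcagaa
Polrmt, Nrf1-type, chr10:79746697-79746726: aagagtatttcTGCGCATGCtctcttgccg
Gabpa, Gabpa-type, chr16:84835019-84835048: ggagggtaagtgCTTCCGggtccctcagct
Esrra, Nrf1-type, chr19:6921824-6921853: ccccctgttttGCATGCGCAGGCcggcccc
The 4 genes of the mtDNA machinery thus all held a Gabpa-type motif within 50 bases of their RefSeq start. The Tfb2m window held 2 copies in a row, and the Esrra window held overlapping Nrf1-type matches on both strands. These letters are a description of the sequence and not evidence of binding.

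Total counts per library were between 65915112 and 68229647, so depth was nearly equal. Of 10 osteoclast markers, 9 were higher in RANKL than in PBS, with summed levels of 23.6 to 31.8 FPKM (a level corrected for transcript length and for library size) in PBS, 489 to 1022 in RANKL and 70.4 to 100.4 in RANKL + Vit D + K. With the vitamins 8 of the 10 were lower than in RANKL and 1, Itgb3, was higher, and Calcr was at 0 in all PBS and RANKL + Vit D + K libraries. With the vitamins Itgb3 measured 18.5, 3.83 and 12.3 FPKM, replicate 2 lying within the RANKL range of 2.26 to 4.65. The 7 macrophage markers, led by Lyz2, summed to 26283 to 30490 FPKM in PBS, 16600 to 24185 in RANKL and 4485 to 11507 in RANKL + Vit D + K, where 5 were lower and 1 higher than in RANKL. The 8 neutrophil markers, led by S100a9 in PBS and RANKL, summed to 11.1 to 128 FPKM in PBS, 11.3 to 148 in RANKL and 0.551 to 1.72 in RANKL + Vit D + K, where 5 were at 0 in every library. B cell and stromal cell markers, led in PBS and RANKL by Cd79b and Pdgfrb, summed to less than 1 FPKM in every library. The 3 T cell markers looked up (Cd3d, Cd3e, Cd3g) had no row under these symbols. The part of these marker shifts in the results below was not tested, and in bulk RNA fewer cells of a type cannot be told apart from less RNA per cell. Replicate 2 of RANKL + Vit D + K stood apart from its group. Calls of the regulators are also counted without it, and changes of single pathway and marker genes are given only with it. The median absolute log2 difference of this replicate was 0.57 and 0.46 from the rest of its group, which differed by 0.22. RANKL replicate 2 also stood apart, to a lesser degree. It differed by 0.31 and 0.33 from the other RANKL libraries, which differed by 0.17.

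Among the coactivators, Ppargc1b was lower and Pprc1 higher with the vitamins than in either other group. Ppargc1b (chromosome 18, 61298136 to 61400431, minus strand, in the table's coordinates on GRCm38) measured 1.49, 1.20 and 1.01 FPKM in the 3 PBS libraries. In the RANKL libraries it measured 3.91, 4.24 and 3.40 FPKM, and in the RANKL + Vit D + K libraries 0.588, 0.575 and 0.340 FPKM. Every RANKL library was above every PBS library, and every library with the vitamins was below both other groups. Ppargc1b was thus higher in RANKL than in PBS by 1.51 ± 0.24 on the log2 scale (SE, n = 3 per group, edgeR quasi-likelihood test with Benjamini-Hochberg adjusted p = 0.0145), a 2.85-fold difference. It was 6.90-fold lower in RANKL + Vit D + K than in RANKL (log2 change -2.79 ± 0.26, adjusted p = 0.000362) and 2.42-fold lower than in PBS (-1.27 ± 0.25, adjusted p = 0.00389). These comparisons share groups and are not independent of each other. The rise with RANKL kept its size but lost its call without PBS replicate 2 (adjusted p = 0.0508), PBS replicate 3 (0.0716), RANKL replicate 1 (0.0597) or RANKL replicate 2 (0.0535), whereas both differences of the vitamin group were called under all 20 alternatives.

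Pprc1, a PGC-related coactivator that responds to growth signals (chromosome 19, 46044886 to 46072911, plus strand), went the other way with the vitamins. Its level was 4.22, 3.55 and 4.10 FPKM in PBS and 5.04, 6.47 and 4.47 in RANKL. With the vitamins it was 11.4, 9.03 and 12.1 FPKM, above every library of both other groups. Pprc1 was 2.29-fold higher in RANKL + Vit D + K than in RANKL (log2 change 1.20 ± 0.19, adjusted p = 0.00235) and 2.81-fold higher than in PBS (1.49 ± 0.19, adjusted p = 0.000623). RANKL against PBS did not pass the test (0.30, 95% interval -0.12 to 0.71, adjusted p = 0.447). The vitamin calls of Pprc1 held under all 20 alternatives. Pprc1 shares 329 bases with Ldb1 on the opposite strand, whose change with the vitamins was -0.29 (adjusted p = 0.105).

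Ppargc1a, the best known member of the PGC family in muscle and brown fat (chromosome 5, 51454250 to 51567704, minus strand), was barely detected. It had 0, 4 and 4 counts in the PBS libraries, 4, 0 and 0 in the RANKL libraries and 0 in each of the 3 libraries with the vitamins. A count of 0 allows up to 3 counts in a library, for counting error only, so the groups were not distinguishable at this depth and no fold is given. Ppargc1a was the lowest of the 10 genes in every group.

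The make-up of the coactivator family thus differed between the groups. The ratio of Pprc1 to Ppargc1b in FPKM was 2.83, 2.96 and 4.06 in PBS, 1.29, 1.53 and 1.32 in RANKL, and 19.4, 15.7 and 35.7 in RANKL + Vit D + K. The 3 groups did not overlap, and the ratio was lowest in RANKL. No test of the ratio was run, since with 3 libraries a side an exact permutation test cannot go below a two-sided p of 0.1.

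**Figure D1:**
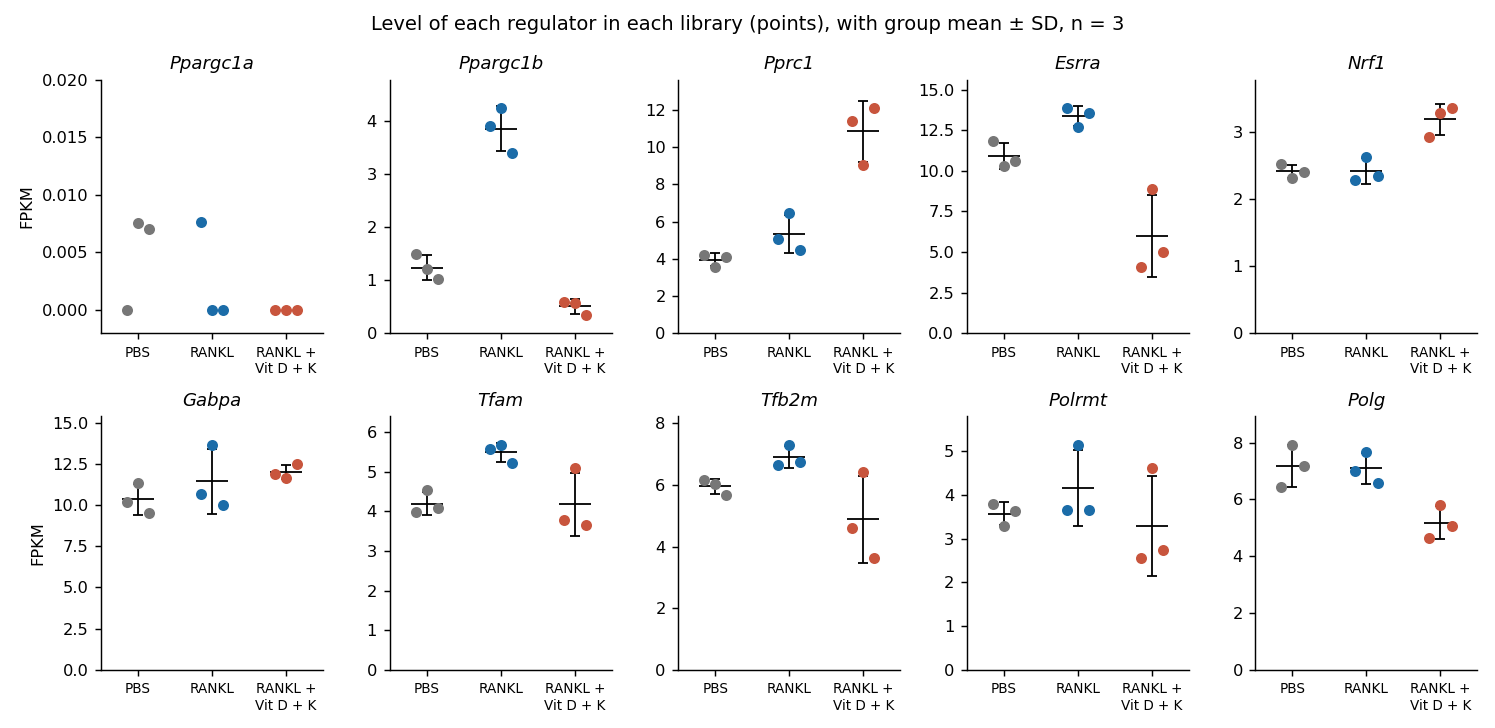
Level in FPKM (vertical axis, own scale for each gene) of the 10 regulators in each library, with the group mean and SD (n = 3), both left out for Ppargc1a. Ppargc1b was highest in RANKL at 3.40 to 4.24 and lowest with the vitamins, Pprc1 was highest with the vitamins at 9.03 to 12.1, and Ppargc1a was at or near 0 throughout.

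Among the transcription factors Esrra was lower and Nrf1 higher with the vitamins, while Gabpa did not pass the test. Esrra (chromosome 19, 6910977 to 6921840, minus strand) encodes an orphan nuclear receptor that is a main partner of the PGC coactivators. It measured 11.9, 10.3 and 10.6 FPKM in PBS and 13.9, 12.7 and 13.5 in RANKL. With the vitamins it measured 4.08, 8.88 and 5.01, with replicate 2 the highest and all 3 below every other library. Esrra was 2.06-fold lower in RANKL + Vit D + K than in RANKL (log2 change -1.05 ± 0.21, adjusted p = 0.0064) and 1.84-fold lower than in PBS (-0.88 ± 0.21, adjusted p = 0.0101). Without replicate 2 of the vitamin group the difference from RANKL was -1.34 (adjusted p = 6.23e-05). The call against PBS was lost without PBS replicate 1 (adjusted p = 0.0534) or RANKL + Vit D + K replicate 3 (0.057). RANKL against PBS was 0.17, with an interval of -0.30 to 0.64.

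Nrf1 (chromosome 6, 30047988 to 30153458, plus strand) measured 2.52, 2.32 and 2.39 FPKM in PBS and 2.28, 2.63 and 2.34 in RANKL. With the vitamins it measured 2.93, 3.28 and 3.36 FPKM, all above the other 6 libraries. Its rise was modest, 1.46-fold against RANKL (log2 change 0.55 ± 0.11, adjusted p = 0.00654) and 1.34-fold against PBS (0.43 ± 0.11, adjusted p = 0.0148). With limma on the deposited FPKM the direction was the same but both calls were lost, with adjusted p from 0.0556 to 0.0694 over 3 pseudocounts. On that scale the median of all genes in RANKL + Vit D + K against RANKL was -0.16 on the log2(FPKM + 0.1) scale, against -0.04 in edgeR, and 35.6% of the called genes were higher, against 48.8%. The direction of each called regulator was the same on both scales.

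Gabpa (chromosome 16, 84834925 to 84863779, plus strand), the DNA-binding subunit of GA-binding protein, had the smallest log2 changes between groups among the transcription factors. Its range was 9.52 to 11.3 FPKM in PBS, 9.98 to 13.7 in RANKL and 11.6 to 12.5 with the vitamins. The RANKL libraries overlapped both other groups, and PBS and the vitamin group overlapped in normalized CPM (counts scaled to library size with TMM factors) though not in FPKM. The log2 change with the vitamins was 0.23 ± 0.13 against RANKL (adjusted p = 0.199), and without replicate 2 of the vitamin group it was 0.32 and was called (adjusted p = 0.0464). Gabpa shares 701 bases with Atp5j on the opposite strand, which was lower with the vitamins (-0.56, adjusted p = 0.0229). The strand used in counting is not given in the sources used here.

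The balance between Esrra and Nrf1 moved with these changes. Their FPKM ratio was 4.71, 4.45 and 4.44 in PBS, 6.10, 4.83 and 5.80 in RANKL, and 1.39, 2.71 and 1.49 with the vitamins. All libraries with the vitamins were below all others, replicate 2 lying nearest to them.

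**Figure D2:**
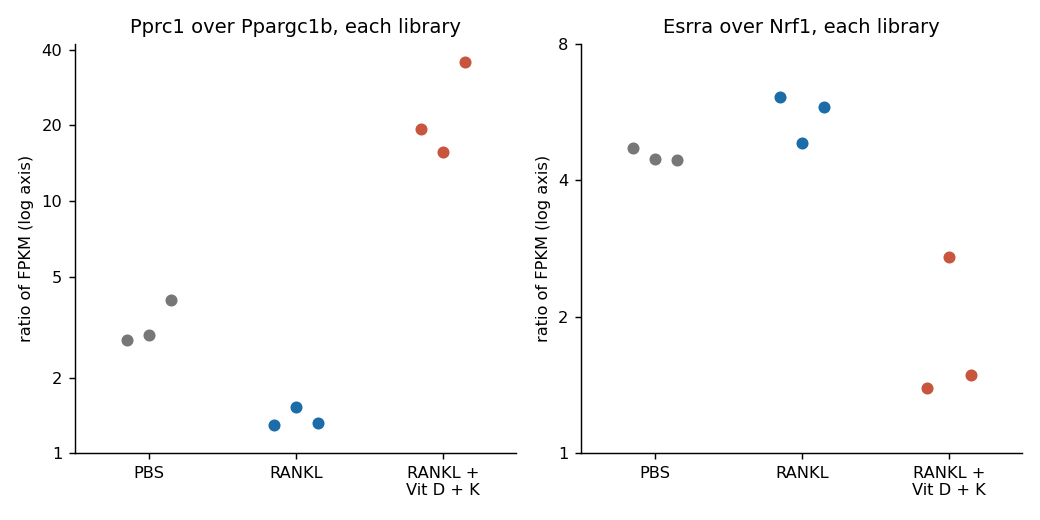
Ratio of Pprc1 to Ppargc1b and of Esrra to Nrf1 in FPKM (log axes) in each of the 9 libraries, each point being 1 library. With the vitamins the first ratio was 15.7 to 35.7, above all other libraries, and the second 1.39 to 2.71, below all others.

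Of the genes of the mtDNA machinery, Polg was called in both comparisons of the vitamin group, and Tfam, Tfb2m and Polrmt were called in none of the 3. Polg (chromosome 7, 79446231 to 79466362, minus strand), the catalytic subunit of the polymerase that copies mtDNA, measured 6.45, 7.93 and 7.18 FPKM in PBS and 7.00, 7.68 and 6.59 in RANKL. With the vitamins it measured 4.65, 5.82 and 5.07 FPKM, below every other library. It was 1.24-fold lower than in RANKL (log2 change -0.31 ± 0.10, adjusted p = 0.041) and 1.37-fold lower than in PBS (-0.45 ± 0.10, adjusted p = 0.00702). The first call was lost in 10 of the 20 alternatives, among them leaving out any library other than RANKL + Vit D + K replicate 2, with adjusted p up to 0.122. The second was lost without PBS replicate 2 (adjusted p = 0.0567) or PBS replicate 3 (0.0506). Polg shares 4034 bases with Fanci on the opposite strand, which had a mean count of 610 against 5244 for Polg and was not called against RANKL (0.93, adjusted p = 0.358).

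Tfam (chromosome 10, 71225464 to 71238280, minus strand), which packages mtDNA and opens its promoters, measured 3.98, 4.53 and 4.09 FPKM in PBS and 5.58, 5.69 and 5.22 in RANKL. With the vitamins it measured 3.79, 5.10 and 3.66 FPKM. The RANKL libraries were above all others, but neither the difference from PBS (log2 change 0.26 ± 0.12, adjusted p = 0.301) nor that from the vitamin group (-0.26 ± 0.12, adjusted p = 0.14) passed the test. Without replicate 2 of the vitamin group the latter was -0.34 and was called (adjusted p = 0.0315).

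Tfb2m (chromosome 1, 179528055 to 179546267, minus strand), which melts the mtDNA promoter for the polymerase, had the same shape. It measured 6.15, 6.04 and 5.69 FPKM in PBS, 6.66, 7.31 and 6.76 in RANKL, and 4.60, 6.43 and 3.62 with the vitamins. Replicate 2 of the vitamin group lay close to the RANKL libraries and the other two lay well below them. The difference from RANKL was -0.37 ± 0.17 (adjusted p = 0.119) and, without that replicate, -0.52 (adjusted p = 0.0157). Polrmt (chromosome 10, 79736123 to 79746581, minus strand), the mitochondrial RNA polymerase, ranged from 3.29 to 3.80 FPKM in PBS, 3.66 to 5.15 in RANKL and 2.55 to 4.61 with the vitamins. Its highest value in both treated groups was replicate 2, the groups overlapped, and it was not called in any of the 3 comparisons (adjusted p from 0.463 to 0.879). The remaining vitamin libraries (2.55 and 2.73 FPKM) lay below all PBS and RANKL libraries. Without replicate 2 of the vitamin group Polrmt changed by -0.43 against RANKL (adjusted p = 0.053) and -0.34 against PBS (0.101), with no call. Limma voom with sample weights called both differences (adjusted p = 0.0383 and 0.0208).

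Over the 9 tested regulators, RANKL against PBS gave 1 call, Ppargc1b, which was higher. The background was 2.35% of all 17002 tested genes called higher and 1.26% lower. Overlap between groups was counted in normalized CPM, also over all genes. No share of all genes was counted in FPKM, so the non-overlaps given in FPKM have no background beside them. Values of 3 regulators (Ppargc1b, Tfam, Tfb2m) did not overlap between these groups, against 35.7% of all genes, and in FPKM those of Esrra and Pprc1 did not either. The median log2 change was 0.09 against -0.04 for all genes. RANKL + Vit D + K against RANKL gave 2 higher (Pprc1, Nrf1) and 3 lower (Ppargc1b, Esrra, Polg), against 16.4% and 17.2% of all genes. Values of 7 regulators did not overlap, against 46.8% of all genes, and the median was -0.26 against -0.04. RANKL + Vit D + K against PBS called the same 5 genes in the same directions, against 19.8% higher and 21.0% lower of all genes, with 5 non-overlapping in CPM against 53.1%, to which FPKM adds Gabpa. Each non-overlap of 3 against 3 libraries has an exact permutation p of 0.1, the smallest possible. Without replicate 2 of the vitamin group 8 of the 9 were called against RANKL (3 higher, 5 lower) and 7 against PBS. Calls over all genes rose too in that setting, where 17806 genes were tested. They were 3773 higher and 4486 lower against RANKL, and 4143 higher and 4725 lower against PBS.

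**Figure D3:**
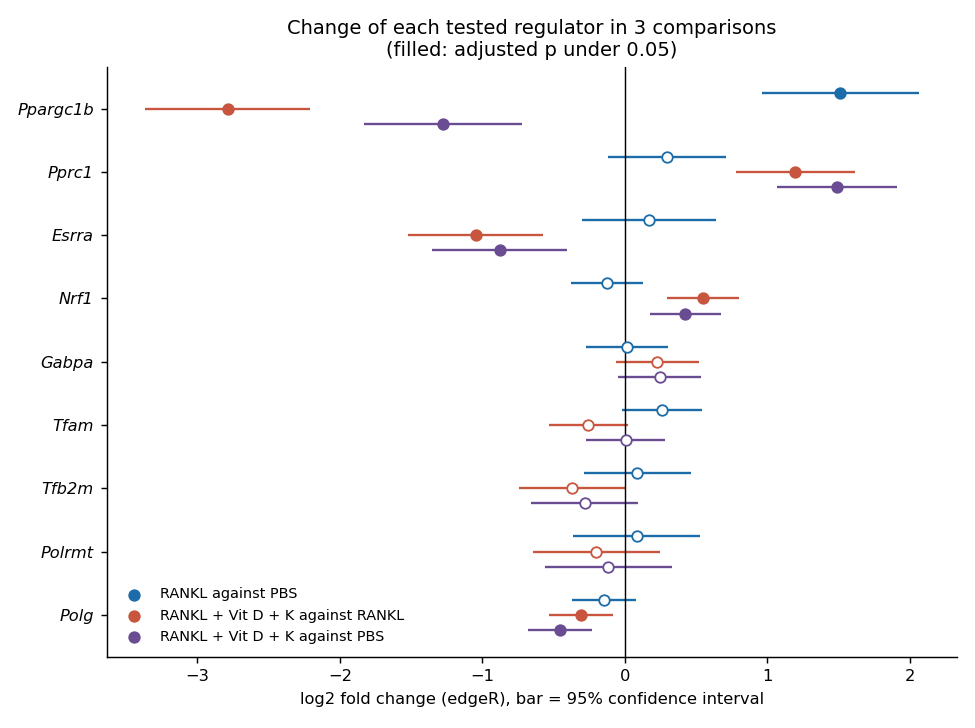
Log2 fold change (horizontal axis) of the 9 tested regulators in the 3 comparisons, with 95% confidence intervals, filled points marking an adjusted p under 0.05. Ppargc1b spanned 1.51 to -2.79 between the first comparisons, and Pprc1 and Nrf1 lay to the right of 0 in both comparisons of the vitamin group. Tfam, Tfb2m and Polrmt had no filled point, and their intervals included 0.

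The order of the levels per transcript length also shifted. Esrra and Gabpa were highest in PBS (means of 10.9 and 10.4 FPKM) and in RANKL (13.4 and 11.4), and their ranges overlapped in both groups. In RANKL + Vit D + K Gabpa (12.0) and Pprc1 (10.9) led, also with overlapping ranges, and Esrra (5.99) came next with a range overlapping that of Polg (5.18). Ppargc1b was ninth in PBS and with the vitamins, and eighth in RANKL, above Nrf1. Neighbours from Esrra down to Nrf1 in the vitamin group overlapped and cannot be ordered.

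The genes with the pattern most like Ppargc1b over the 9 libraries were Krba1, Gm11707, Gm12424, P2ry14 and Gm15931. Their root mean square difference from it in centred log2 CPM was 0.37 to 0.40. P2ry14, a nucleotide-sugar receptor, changed by 1.40 with RANKL and by -2.29 with the vitamins on the log2 scale, and Krba1 by 1.08 and -2.00. These genes were picked by likeness to Ppargc1b in the same libraries, so their directions follow from that choice and are no separate result.

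Of 28 tested partners and upstream regulators of the family, 9 were higher and 6 lower in RANKL + Vit D + K than in RANKL, against 16.4% higher and 17.2% lower of all genes. Their median log2 change was 0.17 against -0.04. Gabpb1, the partner subunit of Gabpa, measured 1.71 to 2.42 FPKM in RANKL and 3.77 to 4.09 with the vitamins (log2 change 1.16 ± 0.16, adjusted p = 0.00143). The nuclear receptors Pparg (2.13, adjusted p = 0.00336) and Ppard (2.13, adjusted p = 0.00637) and the mediator subunit Med1 (0.53, adjusted p = 0.00787) were also higher. Ppard and Pparg were lowest by far in replicate 2 among the libraries with the vitamins, Ppard at 4.71 FPKM there against 16.2 and 13.2. Perm1, a target and partner of the PGC coactivators, measured 3.09 to 3.53 FPKM in RANKL and 0.923 to 1.48 with the vitamins (-1.24 ± 0.22, adjusted p = 0.00373). The AMPK subunits Prkag2 (-1.31, adjusted p = 0.00384) and Prkab2 (-1.24, adjusted p = 0.0057) and the thyroid hormone receptor Thra (-1.15, adjusted p = 0.00462) were lower as well. In RANKL against PBS only Myc (3.93, adjusted p = 0.0217), a growth regulator, was higher and Mef2c (-0.98, adjusted p = 0.0371), an activator of PGC genes in muscle, was lower. Of all genes 2.35% were higher and 1.26% lower. The following counts are of these partners and upstream regulators. Both calls were lost without PBS replicate 1, PBS replicate 3, RANKL replicate 1 or RANKL replicate 2. There was 1 gene called without PBS replicate 2 or RANKL replicate 3, and 7 genes were called without RANKL + Vit D + K replicate 2. In that last setting calls over all genes were 1903, against 614 in the main fit. In the other settings named they were 126 to 316. Against PBS, 8 were higher and 7 lower with the vitamins, against 19.8% and 21.0% of all genes. Gabpb1 (1.39, adjusted p = 0.00043) and Myc (6.30, adjusted p = 0.000625) led upward. Rxra (-1.51, adjusted p = 0.000542), the common partner of nuclear receptors, led downward.

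Other genes of mtDNA replication and maintenance were not called in RANKL against PBS (0 of 18 by edgeR, with 4 at an unadjusted p under 0.05, 1 by DESeq2 and 3 by edgeR without RANKL + Vit D + K replicate 2), where few genes of any kind were called (2.35% higher, 1.26% lower). Over all genes the 614 calls became 1699 by DESeq2 and 1903 without that replicate. In RANKL + Vit D + K against RANKL 6 of the 18 were higher and 2 lower, against 16.4% and 17.2% of all genes. Their median was 0.20 against -0.04. Slc25a33, a pyrimidine nucleotide carrier of the mitochondrial membrane, rose from 2.63, 3.43 and 3.36 FPKM in RANKL to 16.5, 13.9 and 15.4 with the vitamins (2.44 ± 0.23, adjusted p = 0.000362). Lonp1, the mitochondrial matrix protease that also degrades Tfam, rose from 14.4, 16.2 and 14.0 FPKM to 75.1, 41.8 and 69.0 (2.24 ± 0.24, adjusted p = 0.000619). In both genes the libraries with the vitamins lay far above all others. Polg2, the accessory subunit of the polymerase, fell with Polg, from 1.69, 1.65 and 2.56 FPKM to 0.520, 1.04 and 0.391 (-1.48 ± 0.32, adjusted p = 0.00871). Mpv17 (-0.66, adjusted p = 0.008) was lower and Rrm2b (0.53, adjusted p = 0.0106), which supplies nucleotides, was higher. The count of 8 calls became 5 without RANKL replicate 3 and 4 without RANKL + Vit D + K replicate 3. Over all genes the 5725 calls became 3507 and 3300 in these settings. Against PBS, 6 were higher and 5 lower, against 19.8% and 21.0% of all genes. Lonp1 (2.35, adjusted p = 0.000318) and Polg2 (-1.93, adjusted p = 0.00209) were among them.

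Of 23 genes of mitochondrial transcription and RNA handling, 8 were higher and 1 lower in RANKL + Vit D + K than in RANKL, against 16.4% and 17.2% of all genes, with a median of 0.09 against -0.04. Fastkd2 (0.93, adjusted p = 0.00492) and Fastkd3 (0.72, adjusted p = 0.00589), which act on mitochondrial RNA, and Mterf3 (0.93, adjusted p = 0.00541), a negative regulator of mtDNA transcription, were higher. Tfb1m, the rRNA-modifying relative of Tfb2m, was also higher (0.79 ± 0.18, adjusted p = 0.00998), whereas Tefm, the elongation factor of Polrmt, was lower (-0.69 ± 0.22, adjusted p = 0.0392). Tfb1m and Tfb2m thus had log2 changes of opposite sign, that of Tfb2m not being called. The 9 calls became 4 without RANKL replicate 1, RANKL replicate 3 or RANKL + Vit D + K replicate 1, and 3 without RANKL + Vit D + K replicate 3. Over all genes the 5725 calls became 3199, 3507, 3749 and 3300 in these settings, in that order. RANKL against PBS gave 1 call, Hsd17b10 (1.00, adjusted p = 0.0199), a subunit of mitochondrial RNase P, against 2.35% higher and 1.26% lower of all genes. The call was lost without PBS replicate 1, PBS replicate 3 or RANKL replicate 1, and there were 2 calls without RANKL + Vit D + K replicate 2. Over all genes the 614 calls became 138, 126, 170 and 1903 in these settings, in that order. Against PBS, 12 of the 23 were higher and 0 lower with the vitamins, against 19.8% and 21.0% of all genes. They included Hsd17b10 (1.45, adjusted p = 0.000589), Fastkd2 (1.13, adjusted p = 0.00142) and Tfb1m (1.15, adjusted p = 0.00147).

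Of 14 tested mRNAs of nuclear-encoded mitochondrial proteins, 5 were higher and 0 lower in RANKL than in PBS, against 2.35% higher and 1.26% lower of all genes, with a median of 0.35 against -0.04. Atp5b, a subunit of ATP synthase, rose from 93.96, 99.6 and 86.1 FPKM to 174, 223 and 161 (0.86 ± 0.12, adjusted p = 0.00779). Idh3a (1.61, adjusted p = 0.0236), an enzyme of the citric acid cycle, and cytochrome c (Cycs, 1.24, adjusted p = 0.0236) rose too. The 5 calls became 1 without PBS replicate 1, PBS replicate 3, RANKL replicate 1 or RANKL replicate 2, and 2 without PBS replicate 2. Over all genes the 614 calls became 138, 126, 170, 193 and 276 in these settings, in that order. In RANKL + Vit D + K against RANKL 6 were lower and 0 higher, against 17.2% and 16.4% of all genes, with a median of -0.33. They included Cpt1a (-0.94, adjusted p = 0.00244), the gate of fatty acid import into mitochondria, Ucp2 (-1.43, adjusted p = 0.00252), Sdhb of respiratory complex II (-0.66, adjusted p = 0.00442) and Alas1, the first enzyme of heme synthesis (-0.58, adjusted p = 0.00473). Counts of calls in this list against RANKL stayed between 6 and 8 over the 20 alternatives. Against PBS 5 were higher, led by Atp5b (0.80, adjusted p = 0.00121), and 5 lower, led by Cpt1a (-1.20, adjusted p = 0.000577). The shares over all genes were 19.8% higher and 21.0% lower.

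Genes of mitochondrial dynamics and mitophagy gave 1 call in RANKL against PBS, the fission gene Dnm1l (0.88, adjusted p = 0.00934), against 2.35% higher and 1.26% lower of all genes. There was no call without PBS replicate 1 or PBS replicate 3, and there were 2 without RANKL + Vit D + K replicate 1 and 4 without replicate 2 of that group. In that last setting calls over all genes were 1903, against 614 in the main fit. In the settings named before it they were 138, 126 and 703, in that order. Of 15 tested, 2 were higher and 2 lower with the vitamins against RANKL, where 16.4% of all genes were higher and 17.2% lower, and their median was 0.05 against -0.04. The fusion genes Mfn1 (0.37, adjusted p = 0.0439) and Mfn2 (-0.37, adjusted p = 0.0198) went opposite ways. Mief1 was higher (0.66, adjusted p = 0.035) and the mitophagy receptor Fundc1 lower (-0.51, adjusted p = 0.0102). With the vitamins Mief1 measured 6.74, 4.59 and 6.98 FPKM, replicate 2 lying within the RANKL range of 3.84 to 4.67. The 4 calls became 8 without RANKL + Vit D + K replicate 2 and 1 or 2 without PBS replicate 1, any RANKL library or either other library with the vitamins. Over all genes the 5725 calls became 8259 without replicate 2 of the vitamin group and 3199 to 5117 in the other settings named. Against PBS, 6 were higher, led by Dnm1l (0.99, adjusted p = 0.000694), and 2 lower, against 19.8% and 21.0% of all genes.

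**Figure D4:**
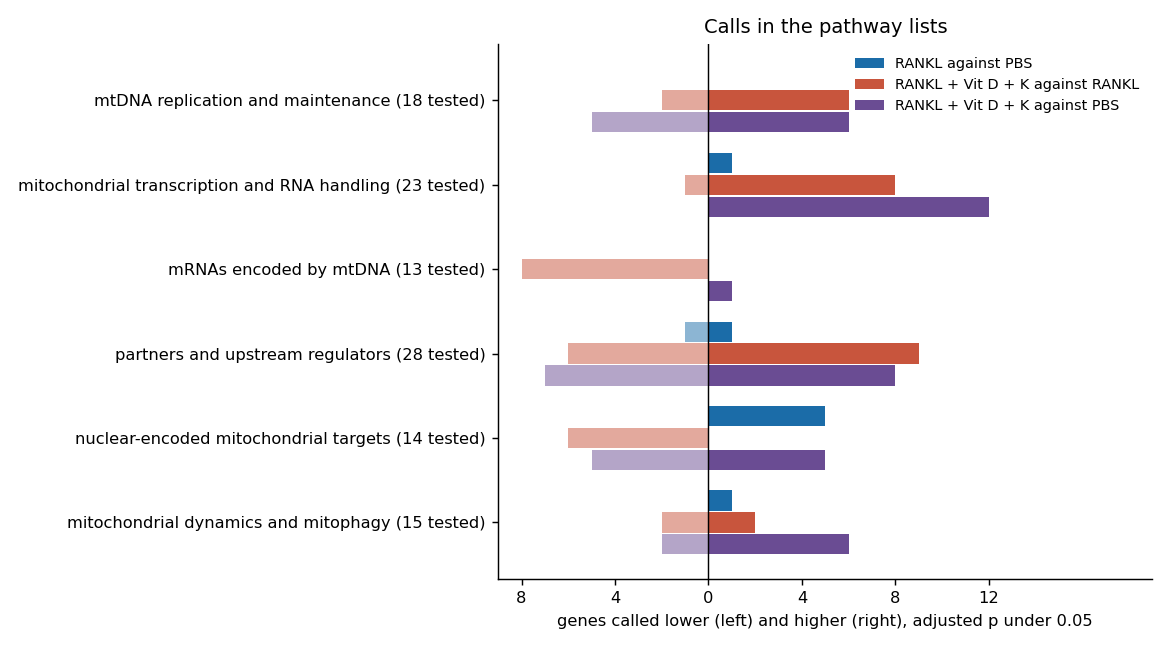
Number of genes called higher (right, solid) and lower (left, pale) at an adjusted p under 0.05 in the 6 pathway lists for the 3 comparisons. Nuclear-encoded targets had 5 higher with RANKL and 6 lower with the vitamins against RANKL, and the 8 calls among mtDNA-encoded mRNAs against RANKL were all lower. Of all tested genes 2.35% were higher with RANKL, and 17.2% were lower with the vitamins against RANKL.

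The 13 mRNAs encoded by mtDNA are the products of Polrmt, Tfam and Tfb2m, and their sum took a larger share of all counts in RANKL. The share was 2.45%, 2.59% and 2.51% in PBS, 2.96%, 3.16% and 3.04% in RANKL, and 2.51%, 2.95% and 2.58% with the vitamins. All RANKL libraries were above all others, with replicate 2 of the vitamin group closest (exact permutation test, two-sided p = 0.1 against either group, the smallest possible). Gene by gene, 0 of 13 were called in RANKL against PBS by edgeR (9 at an unadjusted p under 0.05) and 2 by DESeq2, with a median of 0.32. Of all genes edgeR called 2.35% higher and 1.26% lower, 614 in number, and DESeq2 called 1699. In RANKL + Vit D + K against RANKL 8 of 13 were lower and 0 higher, against 17.2% and 16.4% of all genes, with a median of -0.37 against -0.04. The apocytochrome b mRNA mt-Cytb measured 1957 to 2281 FPKM in RANKL and 1111 to 1663 with the vitamins (-0.49 ± 0.12, adjusted p = 0.0124), and mt-Nd3 of complex I had the largest change (-1.08 ± 0.32, adjusted p = 0.0293). The cytochrome oxidase mRNAs mt-Co1 (0.27 ± 0.12, adjusted p = 0.129) and mt-Co2 (0.20 ± 0.10, adjusted p = 0.175) were not called. The 8 calls became 12 without replicate 2 of the vitamin group and 0 to 4 without any other library. Over all genes the 5725 calls became 8259 without that replicate and 3199 to 5117 without any other library. Against PBS, only mt-Co2 was called with the vitamins, and it was higher (0.40 ± 0.10, adjusted p = 0.0148). Of all genes 19.8% were higher and 21.0% lower. Without replicate 2 of the vitamin group 7 were called, while calls over all genes rose from 6932 to 8868. The 0 calls with RANKL became 7 without that replicate and 9 when only PBS and RANKL were fitted. Calls over all genes rose in these settings too, from 614 to 1903 and 1736. Several of these genes overlap or lie on opposite strands. The libraries were selected for poly(A) RNA, and the amount of mtDNA itself was not measured.

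**Figure D5:**
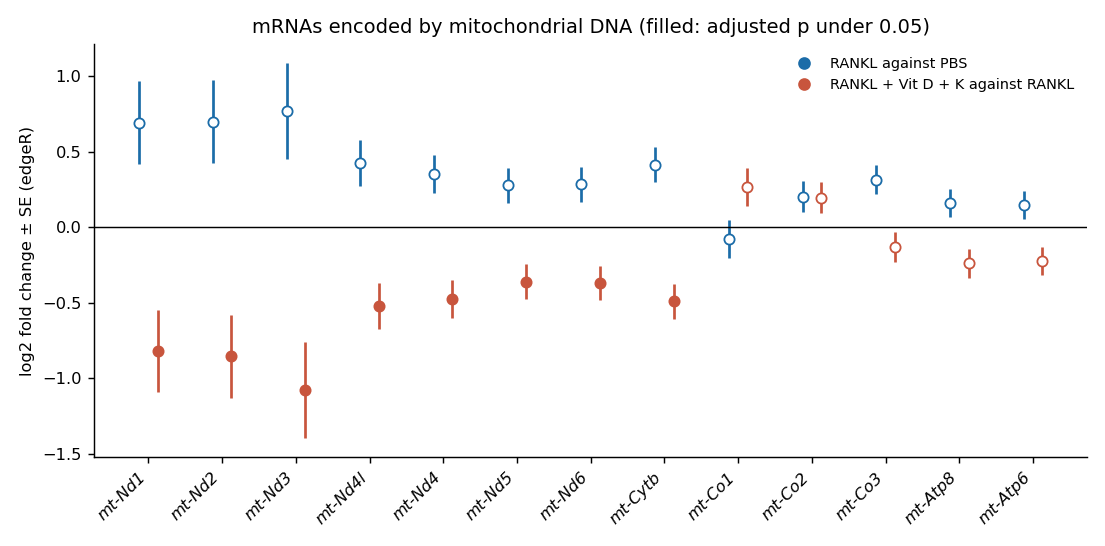
Log2 fold change ± SE (vertical axis) of the 13 mRNAs encoded by mtDNA in RANKL against PBS and in RANKL + Vit D + K against RANKL, filled points marking an adjusted p under 0.05. With RANKL all but mt-Co1 lay above 0 and none was called, and with the vitamins 8 were called lower while mt-Co1 and mt-Co2 lay above 0 without a call.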

How the data were processed

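BMDM RNA sequencing was analysed from 3 groups of 3 libraries, grouped and numbered by their labels. The authors deposited 1 table with whole-number counts per gene, not normalized, and FPKM values that the authors scaled for gene length and library size. Libraries were made from poly(A)-selected RNA and sequenced as paired ends. The submitters' processing notes name cutadapt 1.9, HISAT2 2.0.4, StringTie 1.3.4d and edgeR without their roles. They name the human build hg38, whereas the table's coordinates are those of mouse, since 24678 of 28379 genes have the position given by GENCODE for GRCm38. The counting rule for strands and shared reads is not given in the sources used here. The labels give 20 μM for menaquinone-4, and the study's methods give another dose.

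Counts were tested in R 4.3.3 with edgeR 4.0.16 (filterByExpr, TMM, quasi-likelihood F test) in 1 model of all 9 libraries with 1 coefficient per group. P-values were adjusted by Benjamini-Hochberg over the 17002 genes that passed the filter, with a threshold of 0.05. SEs of log2 fold changes were taken as the absolute change over the root of F. CPM were computed with TMM factors. Single values were compared by the exact two-sided permutation test. Motif matches were searched by exact letters. The test code was checked on simulated data.

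The 10 regulators, the pathway lists and the marker lists were chosen with earlier results of these data known. From each pathway list at most the 4 called genes with the lowest adjusted p in each direction were named per comparison, of the mtDNA-encoded mRNAs at most 4, of the genes most like Ppargc1b the nearest 5, and of each marker list the highest gene and markers at 0. The 20 alternatives were other normalizations (median-of-ratios, upper-quartile), no filter, a stricter filter (CPM of at least 1 in 3 libraries), DESeq2 1.42.0, limma 3.58.1 on log2(FPKM + 0.1, 1 or 0.01), limma voom with sample weights, the replicate number as a block, a fit of only the groups compared, and leaving out each of the 9 libraries.

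Same-numbered PBS and RANKL libraries deviated together (correlations of deviations from the group means of 0.12, 0.22 and 0.15), and the labels do not say what a number marks. The neutrophil marker S100a9 also followed the numbers, at 32.7, 56.5 and 3.98 FPKM in PBS and 36.0, 66.9 and 3.66 in RANKL. The cause of this was not tested. The main fit did not treat the numbers as pairs. The replicate number entered only as a block among the alternatives. Without molecular identifiers, the floor of 3 counts covers counting error alone.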

Additional observations from a re-analysis of the deposited data

How the results depend on the processing

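No call of a regulator changed direction under any of the 20 alternatives. The regulators called in RANKL against PBS, RANKL + Vit D + K against RANKL and RANKL + Vit D + K against PBS (1, 5 and 5) became 2, 9 and 8 with limma voom and sample weights, where replicate 2 of the vitamin group had the lowest weight, 0.142. Leaving out 1 library gave 0 to 1, 4 to 8 and 4 to 7. Over all genes, RANKL against PBS gave 614 calls, 1699 with DESeq2, 3006 with voom weights, 1736 when only these groups were fitted and 126 to 1903 without 1 library, the highest without RANKL + Vit D + K replicate 2 and the lowest without PBS replicate 3. RANKL + Vit D + K against RANKL gave 5725 calls, 10698 with voom weights and 3199 to 8259 without 1 library. RANKL + Vit D + K against PBS gave 6932 calls and 10899 with voom weights. The share of calls that were higher in RANKL against PBS was 65.1%, 50.2% with voom weights and up to 77.5% without PBS replicate 1. With the replicate block the calls were 825 (538 higher, 287 lower), 5873 and 7041, and the regulators called were the same 1, 5 and 5. The block changed no other call of a regulator. Same-numbered libraries of the vitamin group had correlations with the others from -0.02 to 0.11, where PBS and RANKL had 0.12 to 0.22. The cause of these shifts was not tested. With 3 libraries per group the regulators without a call were not measured tightly, the widest interval (Esrra in RANKL against PBS) running from -0.30 to 0.64 on the log2 scale.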
